A study of Homo sapiens with 24 samples.

Results

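Established ER+ lines of human breast carcinoma were kept at 5 mM glucose (LG, the control) or at 25 mM (HG), to model the effect of hyperglycemia on tumor cell transcription. The values below describe how the response to high glucose differed between MDA-MB-175 and ZR-75-30, and which genes moved in opposite directions in these lines. The comparison used 16 of the 24 samples, 4 replicates of each line at each glucose level, and the other 8 samples were of HCC1500. The difference was computed gene by gene as the change from LG to HG in MDA-MB-175 minus the same change in ZR-75-30, on the log2(value + 1) scale, which understates the changes of weakly expressed genes. Of 18889 genes in the table, 17608 had a value of at least 0.5 in 4 or more of the 16 samples and were tested. At the edge of this rule, 180 tested genes reached the value in exactly 4 samples, and 182 genes left out reached it in exactly 3.

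All groups were unmodified established cell lines from ATCC, with no transgene or drug. Cells were grown with serum, conditioned at low glucose, and then kept for 48 h without serum at either glucose level, so serum withdrawal was common to every group. No osmotic control was among these 16 samples, so more glucose and higher osmolarity cannot be told apart. The labels number the replicates and do not say whether they were separate cultures, so p-values measure the spread between these samples. Values are reads per gene divided by 1 factor per sample, as deposited. A gene was called at a Benjamini-Hochberg adjusted p under 0.05 over all genes tested in limma, and an opposite gene had to be called for the difference and for the change in each line, with opposite signs.

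Cells sense glucose in part through MondoA and its partner MLX, which induce TXNIP and ARRDC4, while the carbon enters glycolysis, the pentose phosphate pathway and lipid synthesis. ATF4 is a transcription factor made when amino acids are short or the endoplasmic reticulum is stressed, and it induces amino acid transporters, amino acid synthesis and tRNA charging. SREBP factors induce sterol and fatty acid enzymes when membrane sterols fall, and interferon signaling induces antiviral genes and antigen presentation.

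Each sample held between 9140024 and 17871065 reads, and 3 reads, taken as the floor of detection, were worth a value of 1.17 to 2.29. Luminal markers were high in both lines, with KRT8 between 12854 and 24675 and GATA3 between 1214 and 1987 over the 16 samples. CDH1, which encodes E-cadherin, was between 5692 and 6512 in MDA-MB-175 and between 49 and 62 in ZR-75-30. Of 12 immune markers, 2 were in the table and their sum reached at most 5.82. The summed endothelial markers were at 86 to 115 in MDA-MB-175 and 7.76 to 20.9 in ZR-75-30, fibroblast markers at 115 to 179.7 and 78.6 to 117, and myoepithelial markers at 138 to 206 and 20.5 to 50.6. No marker on these 4 lists was an opposite gene, and their part in the results was not tested. The glucose labels were checked with TXNIP, which rose in MDA-MB-175 from 1880.1 to 2005 at LG to 2477 to 2591 at HG, and in ZR-75-30 from 603 to 648 to between 1019.8 and 1077. The TXNIP rise was larger in ZR-75-30 (0.76 ± 0.03 against 0.39 ± 0.03, SE, difference adjusted p = 1.0e-05). ARRDC4 rose by 0.41 ± 0.09 in both lines.

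The responses of the lines differed widely. The difference was called for 4278 genes (24.3%), positive for 2091 (11.9%) and negative for 2187 (12.4%). High glucose changed 4170 genes in MDA-MB-175 (23.7%, 11.2% up and 12.4% down) and 7437 in ZR-75-30 (42.2%, 21.5% up and 20.8% down). In bulk samples such as these, fewer cells in some state and less RNA per cell cannot be told apart. Among the 4278 genes, 2311 were called only in ZR-75-30, 575 only in MDA-MB-175 and 125 in neither line. A further 954 moved in the same direction in both lines, 828 of them more in ZR-75-30. The remaining 313 genes, 1.78% of those tested, moved in opposite directions. Of these, 149 rose in MDA-MB-175 and fell in ZR-75-30 (0.846%), and 164 did the reverse (0.931%).

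**Figure D1:**
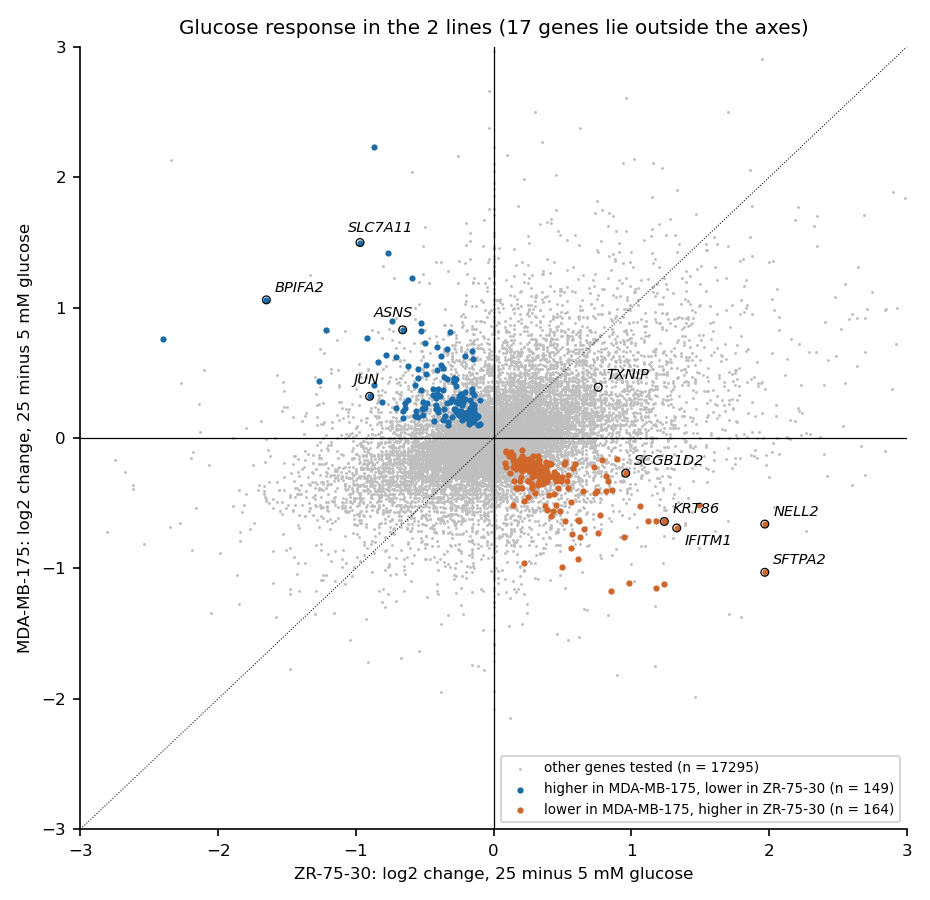
Log2 change from 5 to 25 mM glucose in ZR-75-30 (x axis) and MDA-MB-175 (y axis) for each gene tested; blue and orange points are the 149 and 164 opposite genes, grey points the others, and the dotted line marks equal change. The opposite genes fill the upper left and lower right, with SLC7A11 and BPIFA2 far out on one side and SFTPA2 and NELL2 on the other; 17 genes lie outside the axes.

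Most opposite changes were small. The smaller of a gene's changes had a median size of 0.23 over the 313 genes and a maximum of 1.15, and the median size of the difference was 0.61 with a median SE of 0.08. In 40 genes both changes were at least 0.5 in size, 17 of them higher in MDA-MB-175. In 226 of the 313 genes (1.28% of those tested) the 4 HG values did not overlap the 4 LG values in either line, 119 rising in MDA-MB-175 and 107 in ZR-75-30. Over all genes tested, 310 (1.76%) separated in both lines in opposite order. Protein-coding genes made up 308 of the 313. Exons of 21 opposite genes overlap another gene on the same strand and those of 63 overlap one on the opposite strand. Whether counting used the strand is not stated, so reads of such partners may be mixed.

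The opposite call of a gene needs 3 tests to pass. The test of the difference removed none, since all 313 genes called in both lines with opposite signs passed it. Other fits ended the opposite call for some of the 51 opposite genes chosen for naming. In the fit on all 24 samples, which shares 1 estimate of the spread with HCC1500, 29 of them were no longer opposite genes. Among these were TRIB3, LDHA, PKM, HIF1A, PNPLA2, ACSS2, IGFBP4, ATP5G2, COX6B1, KRT18, KRT86, ALPK3, SPNS2 and PHLDB2, and also ENTPD8, ID1, IDI1, IL1RN, KRT7, BTG2, CALR, DNAJB1, LRIG1 and RPS12. The call also ended for 4 genes after rescaling to CPM (BTG2, IDI1, LRIG1 and RPS12), for 4 in DESeq2 (FAM149A, IFI44, IL1RN and LRIG1) and for 1 in edgeR (LRIG1). With each line fitted on its own 8 samples it ended for 9 (CALR, DNAJB1, FAM149A, ID1, IL1RN, KRT7, LRIG1, RPS12 and SCGB2A2). Without the intensity trend in limma it ended for 8 (BTG2, CALR, DNAJB1, ID1, IDI1, KRT7, LRIG1 and RPS12). A fit on 23 samples, without HG replicate 3 of HCC1500 and chosen after seeing the data, ended it for 3 (CEACAM6, SCGB1D2 and SCGB2A2).

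The ATF4 amino acid response differed between the lines in many of its genes. Of its 32 genes tested, 18 were called with a positive difference and 5 with a negative one, and 8 were opposite genes, all rising in MDA-MB-175 and falling in ZR-75-30. Thus 71.9% were called and 25% were opposite, against 24.3% and 1.78% over all genes tested. Over the list, 23 genes rose and 2 fell in MDA-MB-175, while 12 rose and 12 fell in ZR-75-30. The median change was 0.32 in MDA-MB-175 and -0.04 in ZR-75-30, against -0.02 and 0.00 over all genes. The opposite members were SLC7A11, ASNS, TRIB3, DDIT4, PCK2, CEBPG, CARS and GARS.

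SLC7A11 encodes the transporter subunit that takes up cystine in exchange for glutamate, and lies on chromosome 4 (GRCh37, 139085251 to 139163503, minus strand). Its values in MDA-MB-175 were 76.6, 95.8, 95.1 and 99.7 at LG and 231, 286, 284 and 246 at HG. In ZR-75-30 they were 562, 568, 554 and 551 at LG and 307, 259, 284 and 293 at HG. The conditions did not overlap in either line, as the choice of SLC7A11 as a leading gene required. The 2 lines, far apart at LG, had overlapping ranges at HG. SLC7A11 rose by 1.50 ± 0.08 (SE, n = 4 per group) in MDA-MB-175 and fell by 0.97 ± 0.08 in ZR-75-30, with an adjusted p of 1.7e-11 for the difference of 2.47. Its exons share 865 bases with a gene on the opposite strand.

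ASNS, which makes asparagine from aspartate and glutamine, lies on chromosome 7 (97480989 to 97501854, minus strand). It was at 352, 354, 350.2 and 383 at LG and at 667, 629, 624 and 633 at HG in MDA-MB-175. The ZR-75-30 values were 319, 297, 297 and 311 at LG and 181, 214, 196 and 181 at HG. Here the lines started close together and moved apart, by 0.83 ± 0.05 upward in MDA-MB-175 and -0.66 ± 0.05 in ZR-75-30 (adjusted p = 5.6e-11 for the difference). TRIB3, a pseudokinase that restrains ATF4 and AKT, had means of 1863 and 2147 in MDA-MB-175 and 1995 and 1268 in ZR-75-30, with changes of 0.21 ± 0.05 and -0.66 ± 0.05. DDIT4, an inhibitor of mTORC1, changed by 0.32 ± 0.06 and -0.39 ± 0.06.

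The amino acid genes did not all follow this pattern. PHGDH and PSPH, which act in serine synthesis, fell in ZR-75-30 by 1.28 and 0.89, and their changes of 0.16 and 0.23 in MDA-MB-175 did not pass the test. SLC7A5 (LAT1), a transporter of large neutral amino acids, rose by 0.99 in MDA-MB-175, and its change in ZR-75-30 was 0.14 (adjusted p = 0.0704). ATF4 itself rose in both lines, by 0.25 and 0.14, and DDIT3 (CHOP), a factor downstream of it, by 1.11 and 1.19. For neither gene did the difference pass the test (adjusted p = 0.213 and 0.7). The 5 list members with a negative difference were ATF3, ALDH1L2, SLC3A2, VLDLR and GDF15. SLC3A2 encodes the chain that pairs with SLC7A11 and SLC7A5, and it rose in both lines, by 0.52 in MDA-MB-175 and 0.99 in ZR-75-30.

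**Figure D2:**
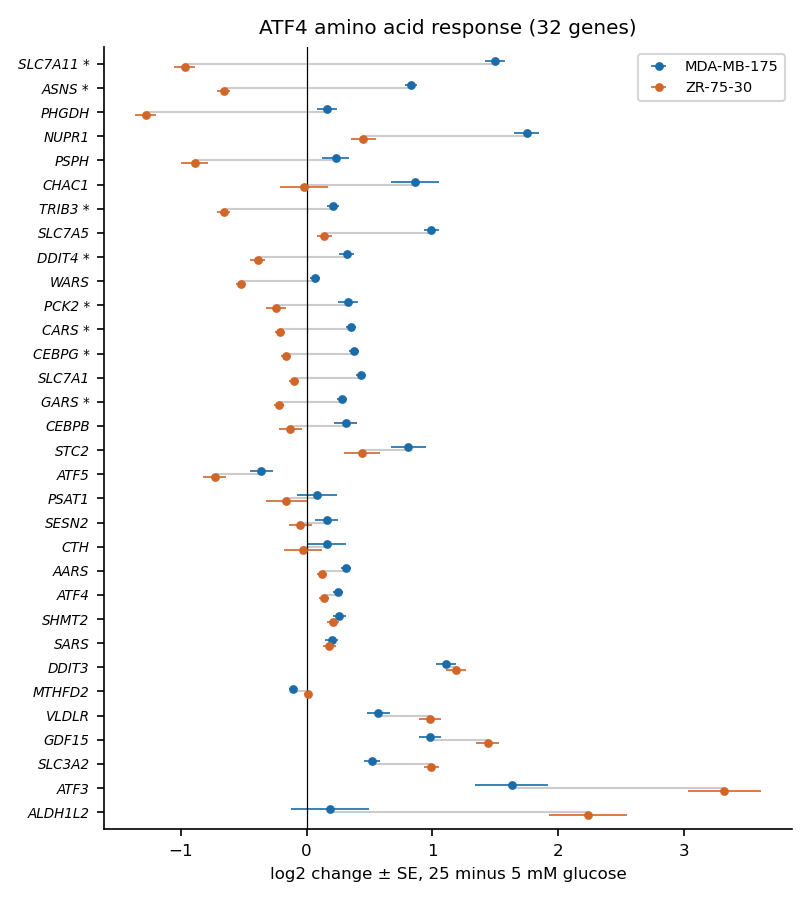
Log2 change ± SE from 5 to 25 mM glucose (x axis) in MDA-MB-175 (blue) and ZR-75-30 (orange) for the 32 tested genes of the ATF4 amino acid response, ordered by the difference; a star marks the 8 opposite genes. At the top the blue points lie right of 0 and many orange points left of it, while ATF3 and ALDH1L2 at the bottom are further right in ZR-75-30.

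NRF2 induces genes for glutathione, NADPH and iron storage. Of the 23 NRF2 genes tested, 14 had a positive and 1 a negative difference, and 2 were opposite genes, SLC7A11 among them. The share called was 65.2% and the share opposite 8.7%, against 24.3% and 1.78% over all genes tested. PGD, an enzyme of the pentose phosphate pathway, fell in both lines, by 0.23 and 0.80, and TXNRD1, a thioredoxin reductase, rose in both, by 1.15 and 0.27. AKR1C1 and AKR1C2, near-identical reductases whose reads may be split between them, were listed at 0 in every ZR-75-30 sample.

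Among 21 glycolysis genes, 5 had a positive and 3 a negative difference, 38.1% called against 24.3% over all genes tested. The opposite genes, 9.52% of the list against 1.78% of all genes tested, were the last enzymes, PKM (pyruvate kinase) and LDHA (lactate dehydrogenase A). LDHA was at 3302, 3212, 3284 and 3430.4 at LG and at 4116, 3960.2, 3766 and 3882 at HG in MDA-MB-175. For ZR-75-30 they were 7079, 6869, 7161 and 7492 at LG and 5603, 5196, 5479.7 and 5081 at HG. The values separated by condition in both lines, with changes of 0.25 ± 0.04 and -0.42 ± 0.04 (adjusted p = 3.7e-08 for the difference). PKM changed by 0.46 ± 0.05 and -0.29 ± 0.05. HK2, a hexokinase, and SLC2A1, the glucose transporter GLUT1, rose in both lines, HK2 by 0.68 and 0.26. PFKM and PFKP, subunits of phosphofructokinase, rose by 0.50 and 0.68 in ZR-75-30 and changed by 0.04 (not called) and 0.23 in MDA-MB-175.

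Of 12 genes of the MondoA list, 2 had a positive and 2 a negative difference, 8 rose in each line, none was opposite, and the median changes were 0.38 in MDA-MB-175 and 0.30 in ZR-75-30. The difference was called for 33.3% of the MondoA list and for 47.6% of 21 hypoxia-inducible genes, against 24.3% of all genes tested. Of the hypoxia-inducible genes, 7 had a positive and 3 a negative difference. HIF1A, which encodes the oxygen-regulated factor, was their opposite gene (4.76%, against 1.78% of all genes tested). Its changes were 0.16 ± 0.04 and -0.30 ± 0.04.

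Sterol synthesis separated the lines mainly through ZR-75-30. Of 23 genes of cholesterol synthesis and uptake, 17 had a positive difference and 1 a negative one, and 17 fell in ZR-75-30 while 6 rose and 6 fell in MDA-MB-175. The share called was 78.3% and the share opposite 17.4%, against 24.3% and 1.78% over all genes tested. The median change was 0.00 in MDA-MB-175 and -0.43 in ZR-75-30. The 4 opposite genes all rose in MDA-MB-175 and included the pathway enzymes MSMO1, IDI1 and FDFT1. MSMO1 was at 628, 669, 644 and 659 at LG and at 761, 745, 740.2 and 758 at HG in MDA-MB-175. ZR-75-30 samples were at 3978, 3880.1, 3922 and 4041 at LG and at 2765, 2646, 2671 and 2625 at HG. Both lines separated by condition, with changes of 0.21 ± 0.03 and -0.56 ± 0.03 (adjusted p = 2.2e-10 for the difference). FDFT1, which makes squalene, changed by 0.29 ± 0.04 and -0.17 ± 0.04. HMGCS1, an early enzyme of the pathway, fell by 0.68 in ZR-75-30, against a change of 0.00 in MDA-MB-175 (adjusted p = 0.933). The IDI1 rise of 0.13 in MDA-MB-175 was not called without HG replicate 1 or LG replicate 1 (adjusted p from 0.0564 to 0.0617).

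Of 20 genes of fatty acid synthesis and storage, 11 had a positive and 1 a negative difference, and SCD, PNPLA2 and ACSS2 were opposite genes. The share called was 60% and the share opposite 15%, against 24.3% and 1.78% over all genes tested. SCD makes monounsaturated fatty acids. It was at 32066, 32912, 32792 and 33195 at LG and at 40418, 41788, 40983 and 39411 at HG in MDA-MB-175. The ZR-75-30 values were 52175, 53085, 54227 and 52837 at LG and 40747, 39032, 39328 and 39289 at HG. The line difference of -0.70 at LG was 0.04 at HG, through changes of 0.31 ± 0.03 and -0.42 ± 0.03. PNPLA2, a triglyceride lipase, changed by 0.30 ± 0.07 and -0.30 ± 0.07, and ACSS2, which activates acetate, by 0.20 ± 0.05 and -0.19 ± 0.05. FASN and ACACA, the core enzymes, were not called in either line or for the difference. DGAT1, which completes triglycerides, was the member with a negative difference and rose by 0.66 in ZR-75-30.

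**Figure D3:**
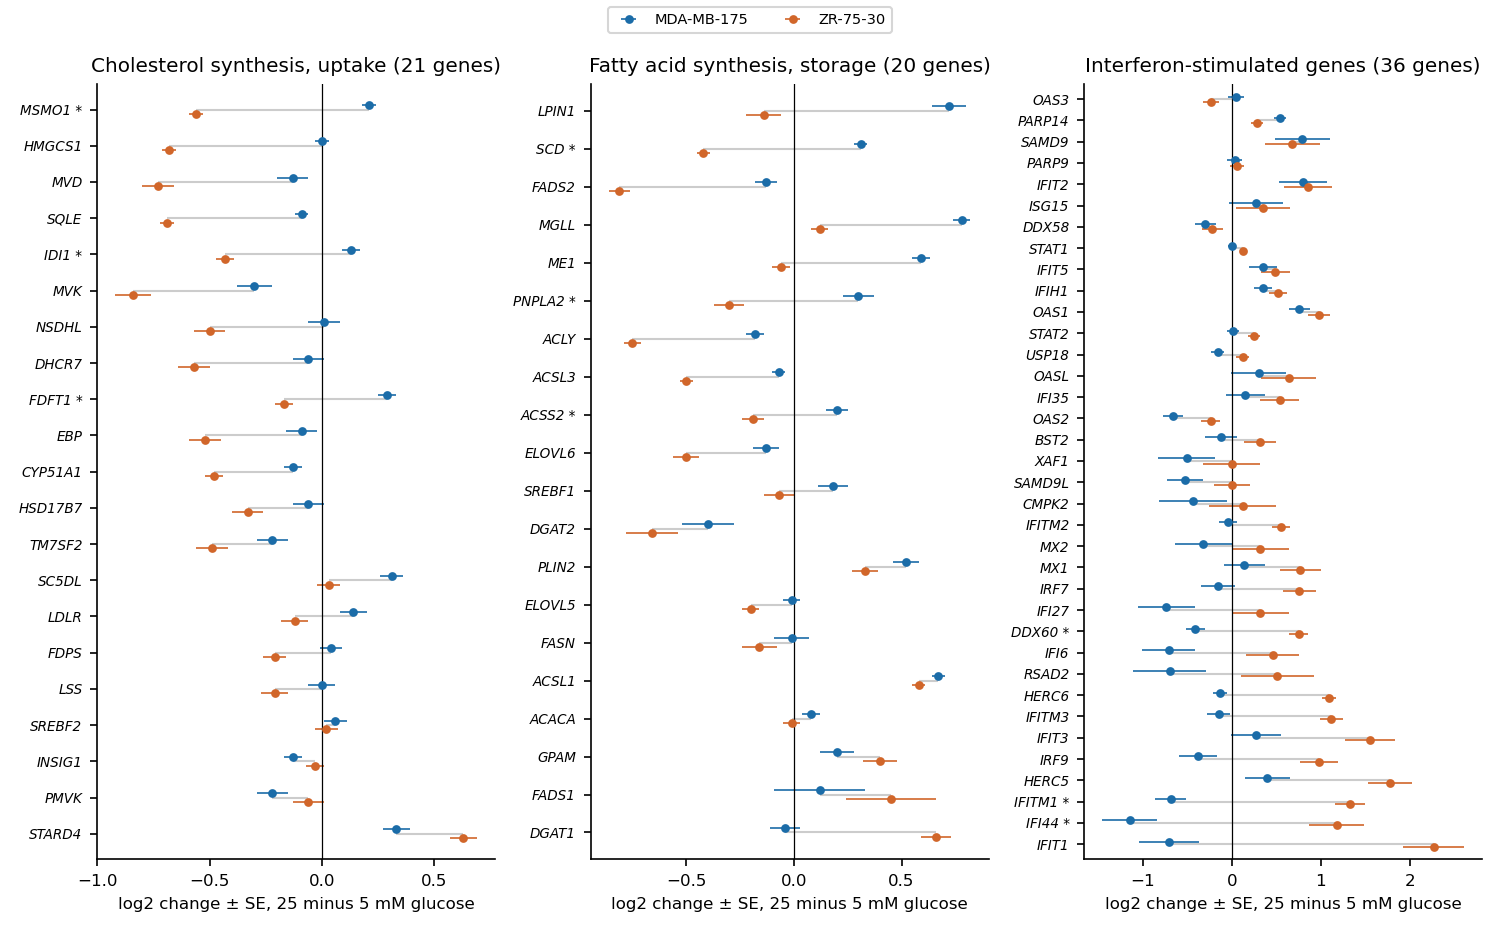
Log2 change ± SE from 5 to 25 mM glucose (x axes) in MDA-MB-175 (blue) and ZR-75-30 (orange) for genes of cholesterol synthesis and uptake (21 of the 23 tested), fatty acid synthesis and storage (20) and interferon stimulation (36), each ordered by the difference; stars mark opposite genes. In the lipid panels most orange points lie left of the blue ones, and in the interferon panel most lie right of them.

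Of 29 AP-1 and immediate early genes, 13 had a positive and 7 a negative difference, and JUN was the opposite one. The share called was 69% and the share opposite 3.45%, against 24.3% and 1.78% over all genes tested. JUN was at 127, 126, 129 and 116 at LG and at 165, 157, 159 and 142 at HG in MDA-MB-175. Values in ZR-75-30 were 771, 712, 722 and 758 at LG and 403, 419, 382 and 378 at HG. The conditions separated in both lines, with changes of 0.32 ± 0.05 and -0.90 ± 0.05 (adjusted p = 1.1e-09 for the difference). FOS and EGR1 fell in both lines and further in ZR-75-30, FOS by 0.65 and 1.74 and EGR1 by 0.64 and 1.21.

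**Figure D4:**
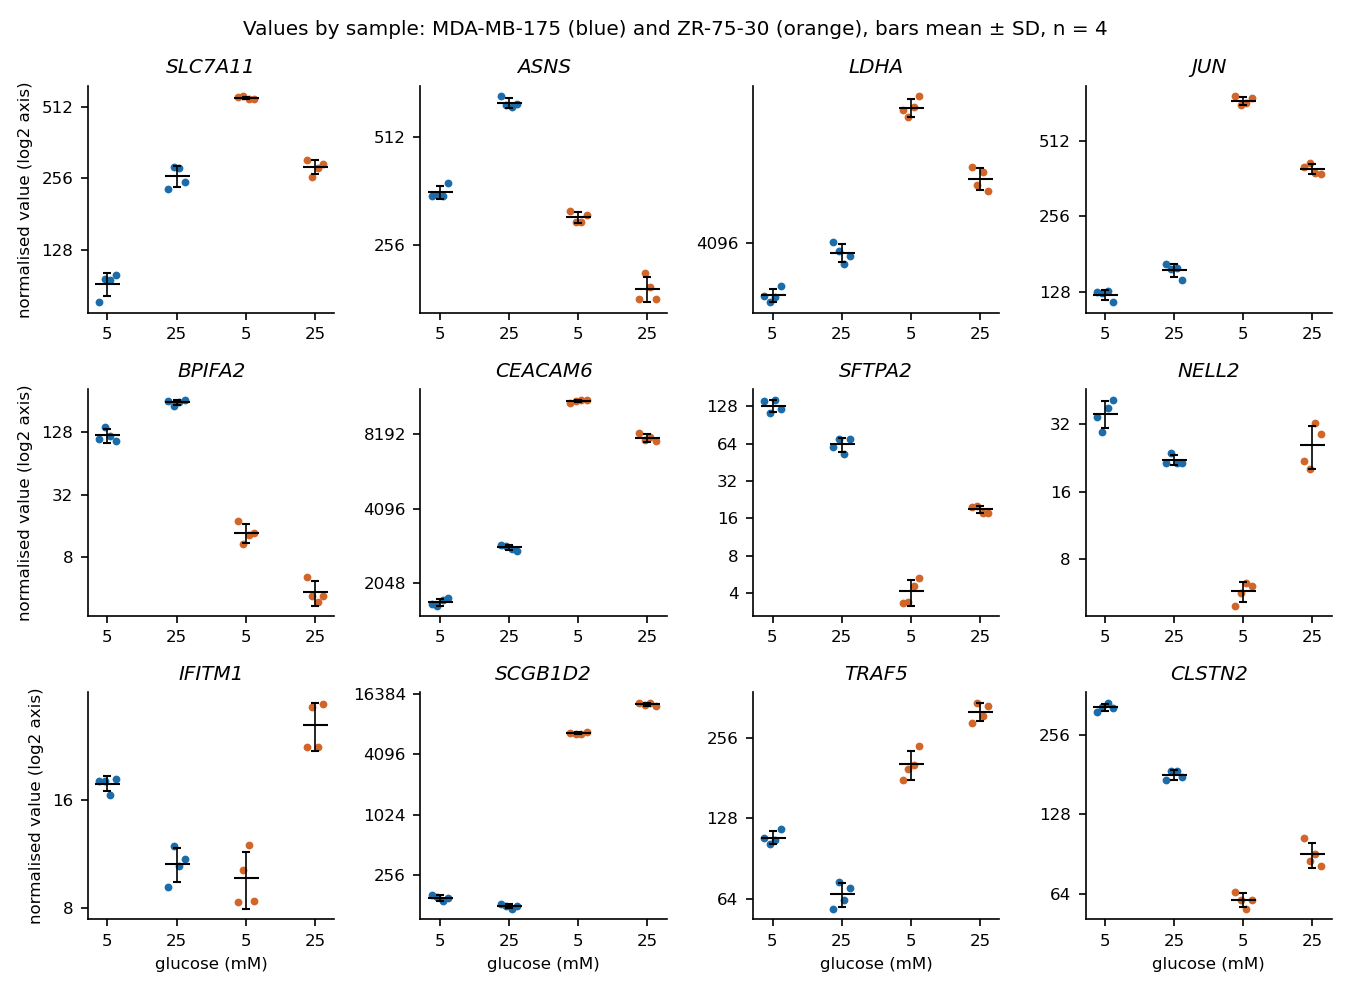
Normalised values (log2 axes) of 12 opposite genes in each sample at 5 and 25 mM glucose in MDA-MB-175 (blue) and ZR-75-30 (orange); bars give the mean ± SD of the 4 replicates. The genes from SLC7A11 to CEACAM6 rise in blue and fall in orange, and those from SFTPA2 to CLSTN2 fall in blue and rise in orange, with no overlap between conditions within a line. Except for LDHA, JUN and SCGB1D2, they were chosen among genes without such overlap.

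Among the other leading genes that rose in MDA-MB-175 and fell in ZR-75-30 were BPIFA2 and CEACAM6. BPIFA2, a salivary secretory protein gene on chromosome 20 (31749574 to 31769218, plus strand), was at 110.0, 144, 116 and 104 at LG and at 251, 229, 246 and 262 at HG in MDA-MB-175. For ZR-75-30 they were 17.7, 10.8, 13.1 and 13.7 at LG and 5.21, 3.38, 2.97 and 3.43 at HG, the last on 5 to 10 reads per sample. The conditions separated in both lines and the gap between the lines widened, with changes of 1.06 ± 0.16 and -1.65 ± 0.16 (adjusted p = 4.7e-08 for the difference of 2.71). CEACAM6, an adhesion glycoprotein of the carcinoembryonic antigen family, was at 1675, 1658, 1746 and 1773 at LG and at 2917, 2893, 2819 and 2770.1 at HG in MDA-MB-175. ZR-75-30 samples were at 10992, 11130.3, 11277 and 11308 at LG and at 8314, 7728, 7952 and 7694 at HG. Its changes were 0.73 ± 0.03 and -0.50 ± 0.03 (adjusted p = 1.9e-12 for the difference). CEACAM6 was not an opposite gene in the fit on all 24 samples, nor in that on 23 samples, which left out HG replicate 3 of HCC1500. CEACAM7 of the same family changed by 0.90 ± 0.12 and -0.74 ± 0.12, and reads could be split between these related genes.

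SLC45A3, a solute carrier, changed by 0.64 ± 0.07 and -0.78 ± 0.07, and SPNS2, which exports sphingosine-1-phosphate, by 0.62 ± 0.09 and -0.71 ± 0.09. ALPK3, an alpha-kinase family gene, changed by 0.58 ± 0.14 and -0.84 ± 0.14, and PHLDB2, which links microtubules to the cell cortex, by 0.53 ± 0.07 and -0.55 ± 0.07. These 4 genes separated by condition in both lines, as their choice required. FAM107B changed by 0.88 ± 0.05 and -0.53 ± 0.05, with means of 306 and 565 for MDA-MB-175 and of 433 and 299.7 for ZR-75-30. CBWD3 and IL1RN, the interleukin 1 receptor antagonist, were closer to the threshold, with changes of 0.82 and -0.53 and of 0.49 and -0.49. CBWD3 belongs to a family of near-identical copies, and its fall in ZR-75-30 was not called without LG replicate 3 or HG replicate 4 (adjusted p from 0.0921 to 0.0923). The IL1RN call was lost without any of 9 samples, namely LG replicates 1, 2 and 4 and HG replicates 1, 2 and 4 of MDA-MB-175 and LG replicate 2 and HG replicates 2 and 3 of ZR-75-30 (adjusted p from 0.0505 to 0.115).

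Epithelial and other list members with this direction had smaller changes. KRT18 and KRT7, simple epithelial keratins, changed by 0.22 ± 0.06 and -0.40 ± 0.06 and by 0.18 ± 0.06 and -0.25 ± 0.06. They were the opposite genes among 22 luminal identity genes (9.09%, against 1.78% of all genes tested). BTG2, a p53 target that restrains proliferation, changed by 0.12 ± 0.04 and -0.33 ± 0.04, and DNAJB1, a co-chaperone, by 0.10 ± 0.04 and -0.33 ± 0.04. SCGB2A2, which encodes mammaglobin, rose by 0.61 ± 0.04 from a mean of 2828 in MDA-MB-175 and fell by 0.15 ± 0.04 from a mean of 121881 in ZR-75-30. In ZR-75-30 its values overlapped, at 115135 to 131009 at LG and 103978 to 117513 at HG. The rises of KRT7, BTG2 and DNAJB1 in MDA-MB-175 depended on single samples. KRT7 was not called without LG replicate 2 or 4 or HG replicate 1, 2 or 4 of that line (adjusted p from 0.0524 to 0.102). BTG2 was not called without LG replicate 3 or HG replicate 1 or 4 (0.0661 to 0.0723). DNAJB1 was not called without LG replicate 2 or 4 or HG replicate 1, 2 or 4, nor without LG replicate 1 or HG replicate 3 of ZR-75-30 (0.0501 to 0.121).

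In the reverse direction the leading genes, also chosen among those without overlap, included SFTPA2 and NELL2. SFTPA2, which encodes surfactant protein A2, lies on chromosome 10 (81315608 to 81320163, minus strand). It was at 142, 112, 143 and 122 at LG and at 60.7, 69.3, 52.7 and 70.4 at HG in MDA-MB-175. The ZR-75-30 values were 3.32, 3.41, 4.56 and 5.34 at LG and 19.8, 20.3, 17.8 and 17.8 at HG. The conditions separated in both lines, with a fall by 1.03 ± 0.15 and a rise by 1.97 ± 0.15 (adjusted p = 6.5e-09 for the difference of -2.99). SFTPA2 has a near-identical neighbour, SFTPA1, so its reads are uncertain. NELL2, a secreted protein with EGF-like repeats, was at 34.5, 29.5, 37.6 and 41.2 at LG and at 21.6, 23.9, 21.5 and 21.6 at HG in MDA-MB-175. Values in ZR-75-30 were 4.99, 5.69, 6.27 and 6.11 at LG and 21.9, 20.3, 32.3 and 28.8 at HG. The ranges of the lines overlapped at HG, after changes of -0.66 ± 0.17 and 1.97 ± 0.17 (adjusted p = 1.5e-07 for the difference).

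The secretoglobin SCGB1D2 moved against its relative SCGB2A2. It was at 163, 155, 140.1 and 150.1 at LG and at 131, 127, 118 and 126 at HG in MDA-MB-175. For ZR-75-30 they were 6641, 6557, 6524 and 6782 at LG and 13217, 12601, 13302 and 12298 at HG. It fell by 0.27 ± 0.04 and rose by 0.96 ± 0.04, with no overlap in either line (adjusted p = 5.6e-11 for the difference). Neither SCGB1D2 nor SCGB2A2 was an opposite gene in the fits on 24 and 23 samples. KRT86, a hair keratin gene with close relatives beside it, changed by -0.64 ± 0.12 from a mean of 9208 in MDA-MB-175 and by 1.24 ± 0.12 from a mean of 15.7 in ZR-75-30. PODXL, a surface sialomucin, changed by -0.64 ± 0.10 and 0.62 ± 0.10, and CLSTN2, a cadherin-like membrane protein, by -0.84 ± 0.07 and 0.56 ± 0.07.

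TRAF5, an adaptor of TNF receptors, was at 108, 103, 106 and 117 at LG and at 58.7, 73.8, 63.2 and 70.4 at HG in MDA-MB-175. ZR-75-30 samples were at 179, 196, 203 and 239 at LG and at 291, 347, 310.2 and 337 at HG. The gap between the lines widened, through changes of -0.70 ± 0.09 and 0.66 ± 0.09 (adjusted p = 2.2e-07 for the difference). PPIL6, a cyclophilin-like gene, changed by -0.73 ± 0.18 and 0.76 ± 0.18. ENTPD8, an ectonucleotidase, changed by -0.76 ± 0.22 and 0.95 ± 0.22, and its fall in MDA-MB-175 was not called without LG replicate 2 (adjusted p = 0.0639). CAMKK1, a kinase that activates calmodulin kinases, changed by -0.93 ± 0.21 and 0.61 ± 0.21, and its rise in ZR-75-30 was not called without LG replicate 2 or 4 or HG replicate 1 or 3 (adjusted p from 0.0506 to 0.0579). FAM149A changed by -0.64 ± 0.18 and 0.52 ± 0.18, and its rise was not called without LG replicate 2 or 3 or HG replicate 1 or 2 of ZR-75-30 (0.0505 to 0.115). ID1, an inhibitor of helix-loop-helix factors, changed by -0.59 ± 0.21 and 0.77 ± 0.21, and its fall was not called without any of HG replicates 1 to 4 or LG replicates 1 to 3 of MDA-MB-175 (0.0625 to 0.113).

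Interferon-stimulated genes were on the ZR-75-30 side of the comparison. Of 36 tested, 13 had a negative and none a positive difference, 19 rose and 1 fell in ZR-75-30, and 4 rose and 4 fell in MDA-MB-175. Negative differences were called for 36.1% of this list and for 12.4% of all genes tested. Opposite genes made up 8.33% of it and 1.78% of all genes tested. The median change was -0.12 in MDA-MB-175 and 0.51 in ZR-75-30. IFITM1, DDX60 and IFI44 were opposite genes, though IFITM1 and DDX60 were not in the fit on all 24 samples, and IFI44 was not with a pseudocount of 0.1 or in DESeq2. IFITM1, a membrane protein that blocks viral entry, was at 18.1, 18.1, 16.5 and 18.3 at LG and at 9.15, 11.9, 10.5 and 11 at HG in MDA-MB-175. The ZR-75-30 values were 8.31, 10.2, 12 and 8.4 at LG and 22.4, 29, 22.5 and 29.5 at HG. IFITM1 was higher in MDA-MB-175 at LG and higher in ZR-75-30 at HG, through changes of -0.69 ± 0.17 and 1.33 ± 0.17 (adjusted p = 4.1e-06 for the difference). DDX60, a helicase of the antiviral response, changed by -0.41 ± 0.11 and 0.75 ± 0.11. IFI44 was near the floor, with 19 reads at LG and 5 at HG over the MDA-MB-175 samples and 12 and 42 over those of ZR-75-30. The ratio of IFI44 was 4.25 in favour of LG in MDA-MB-175 (exact 95% interval 1.54 to 14.6, counting error only) and 3.22 in favour of HG in ZR-75-30 (1.66 to 6.71).

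Genes of MHC class I presentation mostly rose in both lines, with larger median changes in ZR-75-30. Of 16 tested, 11 had a negative difference, 10 rose in MDA-MB-175 and 14 in ZR-75-30, and the median changes were 0.26 and 0.89. HLA-E rose by 0.16 and 1.25, B2M by 0.47 and 0.92, and NLRC5, the transactivator of these genes, by 0.68 and 1.85. The difference was called for 68.8% of the list, against 24.3% of all genes tested. None of the 16 was an opposite gene. HLA genes are near-identical, so their reads may be shared.

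Cytosolic ribosomal protein genes mostly had a negative difference. Of 74 tested, 69 (93.2%) were called with a negative difference, against 12.4% of all genes tested. The median change was 0.03 in MDA-MB-175 and 0.42 in ZR-75-30. In ZR-75-30, 71 rose and none fell, while in MDA-MB-175 13 rose and 1 fell. RPS12 was the opposite member (1.35% of the list, against 1.78% of all genes tested), with changes of -0.17 ± 0.05 and 0.14 ± 0.05. Its call was lost without LG replicate 1 or HG replicate 2 or 3 of MDA-MB-175 or without LG replicate 2 or 3 or HG replicate 1 or 3 of ZR-75-30 (adjusted p from 0.0512 to 0.106). Of 75 nuclear genes of oxidative phosphorylation, 31 had a negative difference and none a positive one, and 33 fell and 2 rose in MDA-MB-175 while 21 rose and 13 fell in ZR-75-30. ATP5G2, a subunit of ATP synthase, changed by -0.33 ± 0.06 and 0.19 ± 0.06, and COX6B1, a subunit of cytochrome c oxidase, by -0.20 ± 0.05 and 0.19 ± 0.05. Of 33 lysosome genes, 16 had a negative and 2 a positive difference, with no opposite gene. The share called was 41.3% for oxidative phosphorylation and 54.5% for lysosome genes, against 24.3% over all genes tested. Opposite genes made up 2.67% of the oxidative phosphorylation list, near the 1.78% of all genes tested.

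IGFBP4, which binds insulin-like growth factors, fell in MDA-MB-175 from 291 to 305 at LG to 229 to 257 at HG, and rose in ZR-75-30 from 659 to 723 to between 927 and 1091. Its changes were -0.28 ± 0.05 and 0.54 ± 0.05 (adjusted p = 6.9e-08 for the difference). It was the opposite gene among 19 genes of the insulin and IGF axis, of which 2 had a positive and 7 a negative difference, and among 29 estrogen-induced genes, with 6 and 5. The shares called were 47.4% and 37.9%, against 24.3% over all genes tested. The shares opposite were 5.26% and 3.45%, against 1.78%. CALR, a chaperone of the endoplasmic reticulum, changed by -0.22 ± 0.05 and 0.14 ± 0.05, and its rise was not called without LG replicate 2 or HG replicate 1, 2 or 3 of ZR-75-30 (adjusted p from 0.0523 to 0.0678). AMD1, which makes the donor for polyamines, changed by -0.18 ± 0.04 and 0.17 ± 0.04. LRIG1, a brake on ERBB receptors, changed by -0.11 ± 0.04 and 0.09 ± 0.04. The fall of LRIG1 in MDA-MB-175 was not called without any of 8 samples (adjusted p from 0.0501 to 0.125), namely HG replicates 1 to 4 and LG replicates 1 to 3 of that line and LG replicate 1 of ZR-75-30. Its rise in ZR-75-30 was not called without any of 11 samples (adjusted p from 0.0512 to 0.154), namely HG replicates 1 to 3 and LG replicates 1, 2 and 4 of that line and HG replicates 1 to 4 and LG replicate 3 of MDA-MB-175. LRIG1 exons share 2669 bases with a gene on the opposite strand.

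Most proliferation genes fell in both lines, and their median fall was larger in ZR-75-30. Of 35 genes of G1/S and DNA replication, 31 fell in MDA-MB-175 and 34 in ZR-75-30, with medians of -0.32 and -1.07, and the difference was positive for 33 and negative for 1. Mitosis genes fell in 31 of 32 and 32 of 32 cases, with medians of -0.50 and -0.80 and 20 positive differences. Homologous recombination genes fell in 21 and 29 of 33 cases, with medians of -0.28 and -0.88 and 22 positive differences. The shares called for the difference were 97.1%, 62.5% and 66.7%, against 24.3% over all genes tested. None of the genes on these lists was an opposite gene.

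Over all genes tested, 11.9% had a positive and 12.4% a negative difference, 24.3% in all. Heat shock proteins and polyamine metabolism, at 25% called each, were near that share. NF-kappaB targets (15%) and mesenchymal and EMT genes (13.8%) were below it. The counts of positive and negative differences in the other lists were as follows. They held the unfolded protein response (2 positive and 6 negative of 24), NF-kappaB targets (1 and 2 of 20), luminal identity (8 and 6 of 22), p53 targets (2 and 10 of 25), mesenchymal and EMT genes (3 and 1 of 29), epithelial junctions (4 and 5 of 24), mucins and secretory genes (7 and 6 of 24), ERBB receptors and ligands (3 and 3 of 16), heat shock proteins (2 and 3 of 20) and polyamine metabolism (2 and 1 of 12).

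**Figure D5:**
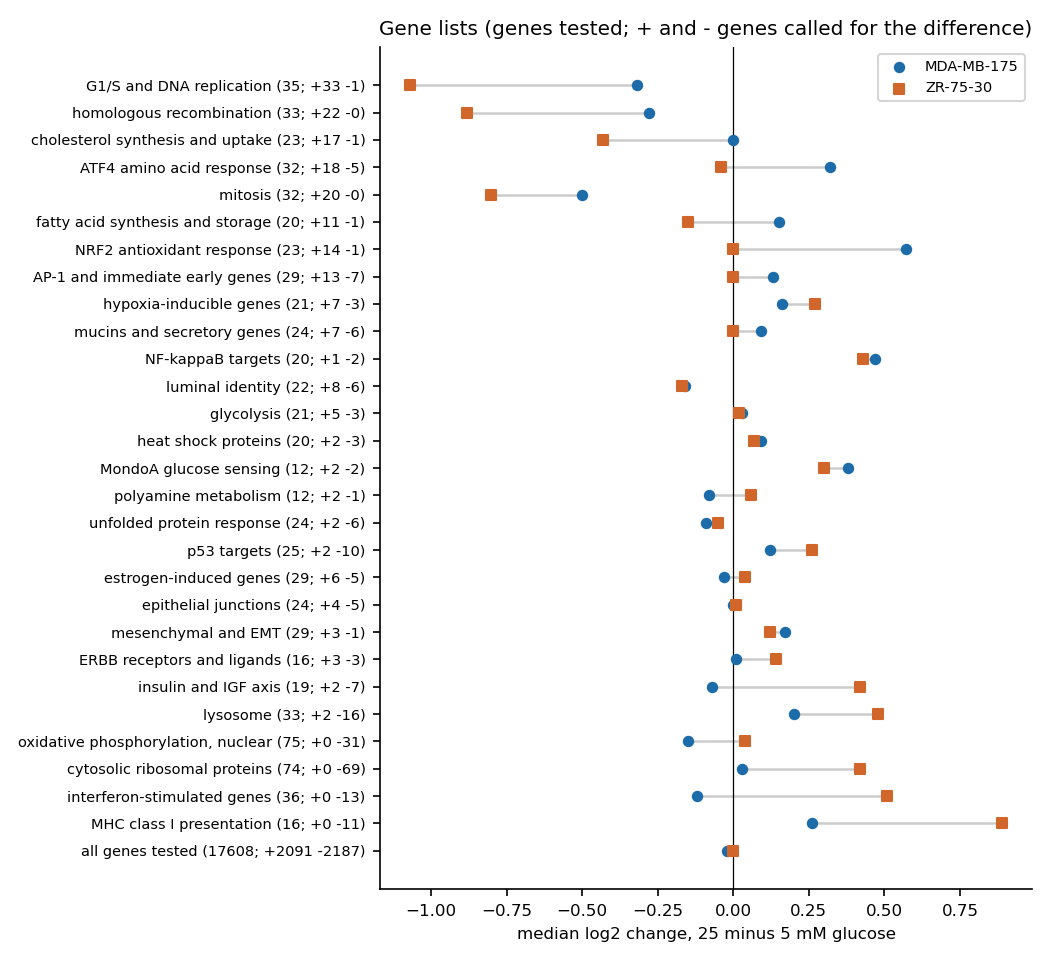
Median log2 change from 5 to 25 mM glucose (x axis) in MDA-MB-175 (blue circles) and ZR-75-30 (orange squares) for 28 gene lists and all genes tested, ordered by the median difference; brackets give the genes tested and those called with a positive or negative difference. The lists at the top, led by G1/S and DNA replication (-0.32 against -1.07), are further left in ZR-75-30, and those near the bottom, led by MHC class I presentation (0.26 against 0.89), further right.

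Some of the largest differences belonged to genes without an opposite call. PSG9, a pregnancy-specific glycoprotein gene with near-identical relatives, had no read in the 4 LG samples of MDA-MB-175. It was at 124, 108, 105 and 107 at HG, with a mean of 111, 55.2 times the highest LG floor of 3 reads (2.01). In ZR-75-30 it had 2 reads at LG and 76 at HG, a ratio of 34.9 (exact 95% interval 9.34 to 294, counting error only). Thus PSG9 rose in both lines. DIO2, which activates thyroid hormone, fell by 2.10 ± 0.19 in ZR-75-30, from 17.2 to 34.2 at LG to between 3.38 and 7.54 at HG. In MDA-MB-175 it was higher at HG without overlap, at 97.4 to 105 at LG and 141 to 155 at HG. This change of 0.52 ± 0.19 was not called (limma adjusted p = 0.0604), in a fit where both lines share the variance of each gene. CAMP, an antimicrobial peptide gene, fell by 2.75 ± 0.14 in ZR-75-30 and changed by -0.17 (adjusted p = 0.445) in MDA-MB-175. IFI30, a lysosomal thiol reductase, and PPP1R3B, a glycogen-targeting phosphatase subunit, rose in ZR-75-30 by 2.84 ± 0.26 and 2.67 ± 0.14. In MDA-MB-175 they changed by -0.10 (adjusted p = 0.835) and -0.06 (adjusted p = 0.829). The exons of IFI30 share 997 bases with a gene on the same strand.

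The line difference was larger at HG than at LG in 182 of the 313 genes and smaller in 131, and it changed sign in 68. Its median size was 0.70 at LG and 0.93 at HG, against 0.64 and 0.69 over all genes tested. SLC7A11, NELL2 and SCD were among the genes whose levels came closest, with line differences of -2.60, 2.43 and -0.70 at LG and of -0.13, -0.19 and 0.04 at HG. ASNS and CEACAM7 were among those whose levels parted, from 0.23 and 0.07 at LG to 1.72 and 1.70 at HG. Levels compared between lines rest on the deposited scaling, whose factor was not identified. Value sums were 6023522 to 6339651 in MDA-MB-175 and 7225346 to 7594840 in ZR-75-30, and line differences under another scaling were not tested.

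The promoters of the opposite genes were searched for short motifs in windows from 250 bases before to 50 after the RefSeq start (GRCh38.p14), which matched 242 of the 313 genes and 12382 of all genes tested. The ATF4 site TGATGCAA, on either strand, was in 4 of the 242 promoters (1.65%) and in 0.468% of all, and 3 of the 4 belonged to genes higher in MDA-MB-175, which were CARS, MARS and TARS, all tRNA synthetase genes. The E-box CACGTG, bound by factors such as MondoA and SREBP, was in 10 of 115 promoters of genes higher in MDA-MB-175 (8.7%), in 17 of 127 of those higher in ZR-75-30 (13.4%) and in 9.79% of all. The AP-1 site TGACTCA was in 6.09% and 2.36% of these sets and 3.34% of all, and the CRE, TGACGTCA, in 5.22% and 2.36% and 3.07%. GTGACGT, which overlaps the CRE where a G precedes it, was in 4.35%, 4.72% and 5.9%, and the estrogen response element in none of the 242 and 1 of 12382. These matches are letters in a window and not sites of binding.

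The matches are shown for CARS, which charges tRNA with cysteine and was the member of the ATF4 list with an ATF4 site among the opposite genes, and in LDHA, whose promoter held 2 E-boxes and a CRE. They are written 5′ to 3′ on the strand of the gene, with the motif in capitals. The CARS window is chr11:3057407-3057436 on the minus strand and shows the ATF4 site as its reverse complement. The LDHA windows, on the plus strand, are chr11:18394366-18394395 and chr11:18394464-18394493 for the E-boxes and chr11:18394501-18394530 for the CRE.
CARS, ATF4 site: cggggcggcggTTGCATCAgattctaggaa
LDHA, distal E-box: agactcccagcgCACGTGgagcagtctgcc
LDHA, proximal E-box: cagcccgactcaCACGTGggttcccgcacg
LDHA, CRE: gccccccccgcTGACGTCAgcatagctgtt
CARS rose by 0.35 ± 0.04 in MDA-MB-175 and fell by 0.21 ± 0.04 in ZR-75-30, and LDHA moved the same way, as given above.

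The opposite genes were also followed in HCC1500, another ER+ line of the study. Of 298 of them tested in its own 8 samples, 25 rose and 58 fell, when 7.46% of all genes rose and 13% fell. Of the 141 tested that were higher in MDA-MB-175, 15 rose as there and 18 fell as in ZR-75-30, and of the 157 higher in ZR-75-30, 40 fell as in MDA-MB-175 and 10 rose as in ZR-75-30. One sample weighed on these counts: HG replicate 3 had a value sum of 7319781, against 5559394 to 5604083 in the other HG samples. Without it, 70 of 297 tested rose and 149 fell, when 20.9% of all genes rose and 37.7% fell. Among those higher in MDA-MB-175, 48 rose and 55 fell, and among those higher in ZR-75-30, 22 rose and 94 fell. ASNS rose in HCC1500, by 0.72 with all samples and 0.54 without that one, as it did in MDA-MB-175. SCD fell by 0.87 and 0.77, as it did in ZR-75-30.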

How the data were processed

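RNA from 4 replicates of each group was sequenced on an Illumina HiSeq. For tumors, the authors trimmed reads and aligned them to hg19 with Ensembl release 70 genes; the submitters' processing notes for these lines list hg38 and edgeR, and the strand setting of the counting is not given in the sources used here. The deposited signal per gene holds reads that were scaled in each sample by a single factor, which was not identified. Whole reads were recovered for 100.00% of values (tolerance 0.01 reads). The tests were planned for CPM, and the planned test on log2 values was kept.

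limma 3.58.1 in R 4.3.3 was fitted to log2(value + 1) over 16 samples as 4 group means with an intensity trend and no covariate. The groups of both lines shared the variance of each gene. On the recovered reads, edgeR 4.0.16 called the difference for 4297 genes. DESeq2 1.42.0, other pseudocounts, filters, scalings, samples and a replicate block were further alternatives. Named genes were TXNIP and ARRDC4, the 12 opposite genes in each direction with the largest smaller change among those that did not overlap in either line and reached a mean of 10 in each line, the 4 largest differences in each direction, and up to 3 opposite members per list by smallest p. Other genes were named as list members after their values were seen. Members and lists were chosen with earlier results of these data known, so lists are given by counts and medians only. Coordinates are GRCh37 from GENCODE 44, matched for 18183 gene IDs (96.3%) and for 142 more by symbol. Tested on simulated data over 17505 genes, the opposite call was made for 58 of 100 genes changed by 0.25 in each line and for 90 of 100 changed by 0.5. These genes had a mean of at least 10 in both lines and equal, opposite changes, so the rates do not cover weaker genes. Of 17305 genes given the same change in both lines, 3 were called opposite and 14 were called for the difference. Intervals and floors cover counting error only. Some genes that met these rules are counted and not reported here.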

Additional observations from a re-analysis of the deposited data

Results flagged for a closer look

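Of 224 sets of 4 replicate values of a named gene, 18 held a sample far from the other 3 (gap over range above Dixon's critical value), where chance gives about 1 set in 20. ZR-75-30 LG replicate 1 stood apart for TXNIP at 648. MDA-MB-175 HG replicate 3 stood apart for ARRDC4 at 141 and CAMKK1 at 2.34. MDA-MB-175 LG replicate 4 stood apart for ASNS at 383 and PNPLA2 at 1114. ZR-75-30 LG replicate 3 stood apart for FAM107B at 412. MDA-MB-175 LG replicate 1 stood apart for CBWD3 at 36.5. ZR-75-30 LG replicate 2 stood apart for IL1RN at 18.8 and PSG9 at 1.14. ZR-75-30 HG replicate 2 stood apart for ENTPD8 at 29.7. MDA-MB-175 LG replicate 3 stood apart for IFITM1 at 16.5. MDA-MB-175 HG replicate 2 stood apart for NELL2 at 23.9. MDA-MB-175 HG replicate 1 stood apart for KRT86 at 6611, PSG9 at 124 and KRT18 at 13182. MDA-MB-175 LG replicate 2 stood apart for PODXL at 266. ZR-75-30 HG replicate 4 stood apart for ACSS2 at 369 and KRT7 at 3083.

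The response to high glucose differed between the lines for 55 of the named genes by the test of the difference itself. Except for TXNIP and ARRDC4, genes were named because they passed this test, so the count follows from that choice. Values are the log2 change in MDA-MB-175 minus that in ZR-75-30. Positive differences were BPIFA2 2.71, SLC7A11 2.47, CEACAM7 1.64, ASNS 1.49, SLC45A3 1.42, SPNS2 1.33, ALPK3 1.43, PHLDB2 1.08, FAM107B 1.41 and CBWD3 1.34. Further positive values were CEACAM6 1.23, IL1RN 0.98, PSG9 3.65, DIO2 2.62, CAMP 2.58, LDHA 0.67, PKM 0.75, MSMO1 0.77 and IDI1 0.56. Also positive were SCD 0.73, PNPLA2 0.61, ACSS2 0.38, TRIB3 0.86, HIF1A 0.46, JUN 1.22, KRT18 0.62, KRT7 0.43 and BTG2 0.45. Positive differences were SCGB2A2 0.77 and DNAJB1 0.44. Negative differences were TXNIP -0.37, SFTPA2 -2.99, ENTPD8 -1.70, PPIL6 -1.48, IFITM1 -2.01, NELL2 -2.62, TRAF5 -1.35, KRT86 -1.88, PODXL -1.26 and CAMKK1 -1.54. Further negative values were ID1 -1.36, CLSTN2 -1.40, FAM149A -1.16, IFI30 -2.94, PPP1R3B -2.73, CALR -0.36, DDX60 -1.16, IFI44 -2.33, IGFBP4 -0.81 and SCGB1D2 -1.23. Also negative were LRIG1 -0.20, AMD1 -0.35, RPS12 -0.31, ATP5G2 -0.53 and COX6B1 -0.39.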

How the results depend on the processing

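The 58 named genes and the counts were recomputed under 32 alternatives. Of 1855 pairs of a named gene and an alternative, 1827 kept the direction and side of the threshold of the difference, 14 kept the direction and lost the call, and 14 changed sign. The sign changes were all of ARRDC4, whose difference was 0.0037 and became -0.0030 with median-of-ratios rescaling, -0.05 with sample weights, -0.01 in edgeR, -0.03 in DESeq2, -0.02 after correction for length and GC, and between -0.05 and 0.08 when 1 sample was left out. The opposite call was less stable: of 51 named opposite genes, 18 kept it in every alternative and 13 lost it without some single sample. Of the 313 opposite genes, 57 kept the call in every alternative, and 219 under both rescalings, edgeR, DESeq2 and the length and GC correction. edgeR called 348 opposite genes and DESeq2 335. Fitting all 24 samples gave 2038 genes called (1007 positive, 1031 negative), 93 opposite genes (44 rising in MDA-MB-175 and 49 rising in ZR-75-30) and 2030 called in MDA-MB-175. A fit without HG replicate 3 of HCC1500, chosen after seeing the data, gave 4702 called (2291 and 2411) and 356 opposite genes (163 and 193). Removing the length and GC trend gave 230 opposite genes in each direction. At an adjusted p under 0.01, 2713 were called (1332 and 1381), 156 were opposite (87 and 69) and 2671 were called in MDA-MB-175. With a difference or change of at least 1, these were 706 (267 and 439), 65 (28 and 37) and 383, with 1080 in ZR-75-30. Leaving out 1 sample gave 3872 to 4523 genes called (1871 to 2106 positive, 1948 to 2417 negative), 239 to 384 opposite genes (126 to 152 and 110 to 232, with 233 to 290 shared), 3470 to 4268 called in MDA-MB-175 and 6946 to 7664 in ZR-75-30. With the replicate block, 4235 were called and 332 were opposite, and of the named genes ID1 and IL1RN lost the opposite call. With group means removed, LG and HG samples of a line with the same number had correlations of -0.05 to 0.15. Such values cannot show whether same-numbered samples were handled together, and the labels do not say. In HCC1500 the block gave 14 opposite genes higher and 36 lower (8 and 10 of those higher in MDA-MB-175, 6 and 26 of those higher in ZR-75-30). Without HG replicate 3 these were 70 and 149 (48 and 55, 22 and 94). Median-of-ratios rescaling gave 25 higher among those higher in MDA-MB-175, and CPM gave 28 lower among them and 6 higher among those higher in ZR-75-30. The cause of these shifts was not tested. Genes with few reads, such as IFI44 and CAMKK1, are limited by depth.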

Other observations

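The 13 protein-coding genes of the mitochondrial genome, chosen for description after their values were seen, moved against the nuclear genes of oxidative phosphorylation. All 13 had a positive difference, 11 rose in MDA-MB-175 and 10 fell in ZR-75-30. Over all genes tested, 11.9% had a positive difference, 11.2% rose in MDA-MB-175, 20.8% fell in ZR-75-30 and 1.78% were opposite. The 8 opposite genes among the 13 were MT-ND2, MT-ND4, MT-ND4L, MT-ND5, MT-ND6, MT-CYB, MT-CO3 and MT-ATP6. MT-CO3, a subunit of cytochrome c oxidase, changed by 0.37 ± 0.08 and -0.53 ± 0.08 (SE, limma adjusted p = 9.6e-06 for the difference). Their share of all values was 3.99% ± 0.29 (SD, n = 4) at LG and 5.25% ± 0.33 at HG in MDA-MB-175, and 4.56% ± 0.21 and 3.79% ± 0.58 in ZR-75-30. In the fit on all 24 samples 2 of the 13 were opposite.

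Aminoacyl-tRNA synthetases and citrate cycle enzymes were also chosen after their values were seen. Over all genes tested, 11.9% had a positive and 12.4% a negative difference, and 1.78% were opposite. Of 20 cytosolic synthetase genes, 12 had a positive and 2 a negative difference, and CARS, GARS, MARS, TARS and YARS were opposite, rising in MDA-MB-175. MARS changed by 0.33 ± 0.04 and -0.44 ± 0.04, and TARS by 0.44 ± 0.04 and -0.29 ± 0.04. Of 17 mitochondrial synthetase genes, none had a positive and 4 a negative difference by limma, and none was opposite. Of 18 citrate cycle genes, 1 had a positive and 8 a negative difference. IDH2 (-0.34 ± 0.05 and 0.33 ± 0.05) and SUCLG2 (-0.22 ± 0.04 and 0.34 ± 0.04) fell in MDA-MB-175 and rose in ZR-75-30.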
